A study of Mus musculus with 49 samples.

Results

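Open chromatin was compared between naive CD4 T cells labelled as Elf4 knockout (KO) and wild-type (WT) naive CD4 T cells, using the 3 KO-labelled and 3 WT libraries that carried ATAC-seq in a series of 49 samples. Both groups came from C57BL/6 mice and were taken untreated at 0 h, so that they differed, as far as the labels go, only in the Elf4 genotype. The labels do not say how the knockout was made, whether it was limited to a cell type, or whether the libraries came from separate mice, so the p-values below measure the spread between these libraries. All 86911 peaks of the common peak set entered, and 47000 of them (54.1%) held enough reads to be tested. The other samples of the series are RNA libraries, of which 4 KO-labelled and 3 WT libraries of naive CD4 T cells are set beside the peaks here.

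Elf4 encodes a transcription factor of the ETS family, whose members bind a short DNA motif with a GGAA core through a shared DNA-binding domain. In mouse CD8 T cells Elf4 is known to restrain proliferation, in part through the Krüppel-like factor gene Klf4, and in people loss of ELF4 causes an X-linked inflammatory disease. Naive CD4 T cells are resting cells that have not met antigen. ATAC-seq marks open chromatin by letting the Tn5 transposase cut accessible DNA and add sequencing adapters there, so that reads pile up at promoters and enhancers.

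Of the 47000 tested peaks, 4 differed between KO-labelled and WT libraries at an adjusted p below 0.05 in edgeR's quasi-likelihood test, which is 0.00851% of those tested (0.00638% higher and 0.00213% lower). Peaks at the starts of Mgll, Dip2c and Abcd2 were more open in the KO-labelled libraries, and a peak at the start of Tor4a was less open. In bulk cells an open site in few cells and a weakly open site in many cannot be told apart. All 4 lay at transcription starts in the authors' annotation, where they were 0.0243% of 16439 tested peaks. Without adjustment, 4641 peaks (9.87%) had a p below 0.05, of which 2795 peaks (5.95%) were higher and 1846 (3.93%) lower. At p below 0.001 (0.323% of peaks) there were 128 higher and 24 lower peaks. In 3533 peaks (7.52%) all KO-labelled libraries lay above all WT libraries, and in 3636 (7.74%) all lay below. DESeq2, run as an alternative, called 64 peaks higher and 3 lower of 32991 peaks for which it gave an adjusted p (0.203% in all, 0.194% higher and 0.00909% lower), and 56 of these 67 were start peaks.

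WT replicate 1 stood apart from the other WT libraries, and the number of called peaks rests on it. Across peaks its log2 level correlated with WT replicates 2 and 3 at r = 0.951, less than with the KO-labelled libraries (0.963 to 0.965). The KO-labelled libraries correlated with each other at 0.973 to 0.982. On the first principal component, which held 33.8% of the variance, the KO-labelled libraries were at -13.1, -36.8 and -21.4, and the WT libraries at -53.8, 64.7 and 60.3 for replicates 1, 2 and 3. On the second, which held 23.8%, the KO-labelled libraries were at 30.2, 33.1 and 32.2 and the WT libraries at -71.7, -27.3 and 3.45. There the groups did not overlap, and WT replicate 1 was the library farthest from the KO-labelled ones. Without WT replicate 1 edgeR called 1882 peaks higher and 188 lower of 50118 tested (4.13% in all, 3.76% higher and 0.375% lower), the 4 peaks above among them. In 95.4% of these 1882 peaks WT replicate 1 lay on the KO-labelled side of both other WT libraries. Their median log2 difference, KO-labelled minus WT, was 0.78 against WT replicates 2 and 3 and -0.014 against WT replicate 1. In 573 of them all 6 libraries separated by label. For the 188 lower peaks these values were 87.8%, -0.51, -0.18 and 117. Both sets were chosen for a difference from WT replicates 2 and 3. A WT library left out of that choice tends to lie on the KO-labelled side of them by selection alone. These values therefore do not show by themselves that WT replicate 1 resembled the KO-labelled libraries. Over all peaks tested with 6 libraries, the groups separated with KO-labelled above in 7.52% and below in 7.74%. Leaving out any other library left 0 calls with edgeR, so the 4 calls also needed the other 5 libraries. The headers number the libraries 5344, 5396 and 5398 in the KO-labelled group and 5342, 5395 and 5397 in the WT group, so replicate 1 of each group carries a number from another series than replicates 2 and 3; what the numbers stand for is not stated. A fit with the 2 number series as a term, added after the data were seen, called 0 peaks, and its 4 lowest p-values belonged to Dip2c, Tor4a, Mgll and Abcd2 (adjusted p = 0.121 each). Within the later numbers alone, that is without replicate 1 of both groups, 1761 peaks were called higher and 456 lower.

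Depth went with the label. The KO-labelled libraries held 13.7, 9.61 and 13.5 M reads in peaks (M, 1e+06), against 6.19, 6.56 and 9.71 M reads in the WT libraries, so KO-labelled replicate 2 and WT replicate 3 were close to each other. The means of 12.3 ± 2.31 M reads for KO-labelled and 7.49 ± 1.94 M reads for WT libraries (SD, n = 3 each) gave p = 0.2 in a two-sided exact permutation test, where 0.1 is the smallest p that 3 against 3 allow. After scaling to totals and TMM factors the median log2 difference over all tested peaks was -0.007, and over 10 equal classes of peak height it ran between 0.0946 in the lowest and -0.0292 in the highest. With every library thinned at random to the depth of WT replicate 1, edgeR called 0 peaks of 38214 tested, while the same 4 peaks kept their direction. A few tall peaks also took an uneven share: the 10 tallest held 5.52, 7.92 and 6.03% of KO-labelled reads and 11.4, 8.06 and 3.5% of WT reads, with WT replicate 1 highest.

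**Figure D1:**
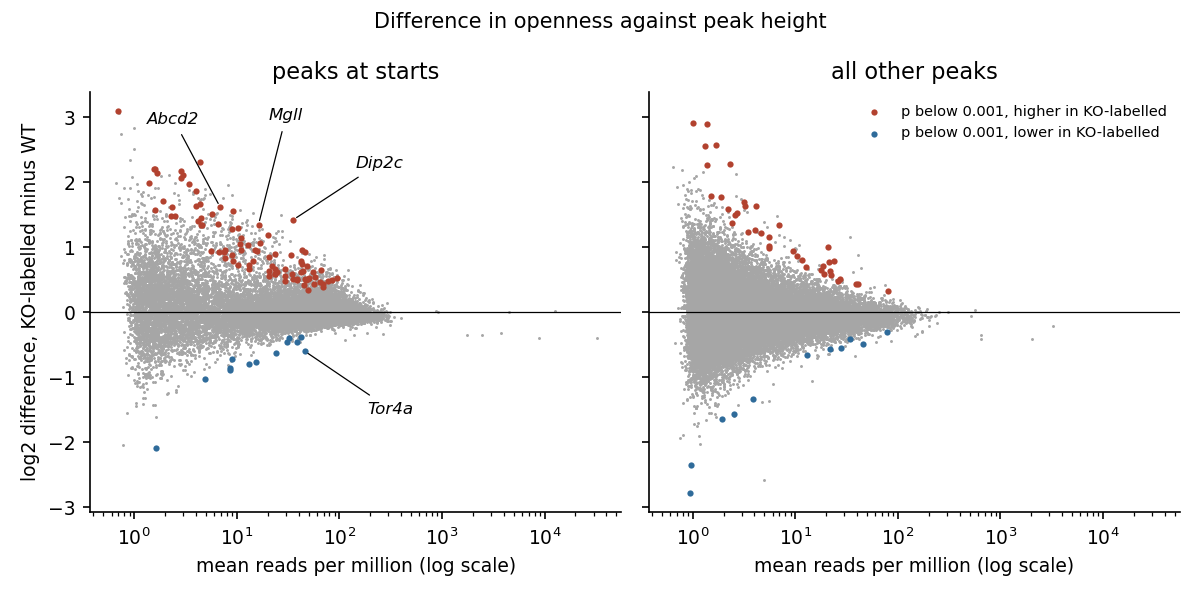
Log2 difference in openness (KO-labelled minus WT, vertical axis) against the mean CPM of a peak, the reads scaled to a total of 1e+06 reads in peaks (horizontal log axis) for the tested peaks, at transcription starts on the left and elsewhere on the right. Coloured points passed an unadjusted p below 0.001, and the 4 peaks with an adjusted p below 0.05 are named; start peaks show more points above 0 than below.

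The called peaks and 2 peaks of interest for the locus or pathway are shown as promoter sequence, so that their content of G and C, taken up below, can be seen. Each is the RefSeq window of 300 bases on GRCm38.p6, which is mm10, from 250 bases before to 50 bases after a transcription start, written 5′ to 3′ on the strand of the gene with CG pairs in capitals. The table used holds no window of Abcd2 in its peak. Mgll lies on the + strand at chr6:88724454-88724753, Dip2c on the + strand at chr13:9276275-9276574, Klf4 on the - strand at chr4:55532426-55532725, Tor4a on the - strand at chr2:25196764-25197063, and the main start of Elf4 on the - strand at chrX:48454270-48454569.
Mgll: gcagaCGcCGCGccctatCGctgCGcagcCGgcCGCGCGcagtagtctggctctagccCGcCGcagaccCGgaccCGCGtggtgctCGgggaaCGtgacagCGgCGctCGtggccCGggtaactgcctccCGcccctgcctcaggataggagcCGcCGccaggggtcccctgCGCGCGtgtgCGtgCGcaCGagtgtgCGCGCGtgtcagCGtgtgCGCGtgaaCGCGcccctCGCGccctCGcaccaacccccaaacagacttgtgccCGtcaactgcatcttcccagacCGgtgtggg
Dip2c: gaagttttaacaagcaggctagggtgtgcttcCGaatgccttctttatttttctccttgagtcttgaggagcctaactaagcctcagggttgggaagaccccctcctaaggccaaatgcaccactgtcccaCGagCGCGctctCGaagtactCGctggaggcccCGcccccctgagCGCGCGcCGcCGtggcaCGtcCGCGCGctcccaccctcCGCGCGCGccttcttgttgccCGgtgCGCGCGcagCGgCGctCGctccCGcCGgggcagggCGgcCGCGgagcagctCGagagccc
Klf4: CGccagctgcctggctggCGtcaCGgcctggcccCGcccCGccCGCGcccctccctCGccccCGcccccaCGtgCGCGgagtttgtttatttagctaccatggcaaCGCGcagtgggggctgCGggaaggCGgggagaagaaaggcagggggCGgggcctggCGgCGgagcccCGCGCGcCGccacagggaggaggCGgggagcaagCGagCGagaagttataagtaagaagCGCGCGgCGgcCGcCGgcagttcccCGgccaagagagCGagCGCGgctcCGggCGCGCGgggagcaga
Tor4a: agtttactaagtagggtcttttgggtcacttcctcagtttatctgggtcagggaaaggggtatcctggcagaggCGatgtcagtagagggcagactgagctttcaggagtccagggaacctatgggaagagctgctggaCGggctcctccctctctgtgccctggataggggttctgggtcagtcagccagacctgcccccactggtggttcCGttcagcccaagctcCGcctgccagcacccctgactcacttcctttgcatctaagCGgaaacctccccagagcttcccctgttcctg
Elf4: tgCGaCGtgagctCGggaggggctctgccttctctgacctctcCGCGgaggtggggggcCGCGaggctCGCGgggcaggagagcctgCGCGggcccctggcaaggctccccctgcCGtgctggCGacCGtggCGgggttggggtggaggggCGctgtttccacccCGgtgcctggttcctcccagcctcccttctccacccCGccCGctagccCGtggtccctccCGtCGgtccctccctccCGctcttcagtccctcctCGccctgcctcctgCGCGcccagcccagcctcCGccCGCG
The windows of Mgll, Dip2c and Klf4 hold 42, 33 and 40 CG pairs at 72.3, 66.7 and 74.3% GC. That of Tor4a holds 5 CG pairs at 57.7% GC, and only 129 of its bases lie in the called peak. The Elf4 window holds 29 CG pairs at 75.3% GC.

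Mgll encodes monoacylglycerol lipase, which releases fatty acids from monoacylglycerols, endocannabinoids included. Its start peak at chr6:88724222-88724922 held 20.7, 26.0 and 23.0 CPM in KO-labelled replicates 1 to 3, against 11.6, 9.31 and 7.03 CPM in WT replicates 1 to 3. The groups did not overlap, and WT replicate 1 was the WT library nearest to the KO-labelled ones. The log2 difference was 1.35 ± 0.18 (SE, adjusted p = 0.0486 with edgeR). Mgll RNA was low, at 0.407 ± 0.0963 CPM in KO-labelled (SD, n = 4) and 0.0914 ± 0.0477 CPM in WT cells (SD, n = 3), below the level needed for a test.

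Dip2c encodes a member of the DIP2 family, proteins with AMP-binding domains. Its start peak at chr13:9276290-9277455 held 48.2, 56.4 and 48.7 CPM in KO-labelled libraries and 28.1, 17.1 and 13.7 CPM in WT libraries. WT replicate 1 was again the highest WT library, and it stayed below all KO-labelled ones. The log2 difference was 1.42 ± 0.19 (SE, adjusted p = 0.0486). Dip2c RNA was at 3.71, 4.42, 4.68 and 5.25 CPM in the KO-labelled and at 2.97, 2.16 and 2.07 CPM in the WT RNA libraries, a log2 difference of 0.70 ± 0.13 on the log2(CPM + 1) scale (limma, adjusted p = 0.00643).

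Abcd2 encodes a peroxisomal transporter of very long-chain fatty acids. The peak at chr15:91191513-91192358 held 11.2, 10.9 and 9.19 CPM in KO-labelled libraries and 3.16, 2.79 and 4.02 CPM in WT libraries, so that WT replicate 1 lay between the other WT libraries. With a log2 difference of 1.62 ± 0.21 (SE, adjusted p = 0.0486) it was the largest of the 4. Abcd2 RNA was at 1.72, 1.64, 1.04 and 1.25 CPM in the KO-labelled and at 0.172, 0.186 and 0.14 CPM in the WT RNA libraries (log2 difference 1.04 ± 0.13, limma adjusted p = 0.000756).

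Tor4a encodes an ATPase of the torsin family. Its peak at chr2:25195314-25196892 held 37.0, 36.6 and 35.5 CPM in KO-labelled libraries and 54.2, 56.9 and 54.3 CPM in WT libraries. Each group lay within a narrow band, with no overlap. The peak fell by 0.60 ± 0.08 on the log2 scale (SE, adjusted p = 0.0486). RNA of the gene fell too, to 39.0 ± 2.37 CPM in KO-labelled cells (SD, n = 4), against 62.1 ± 2.68 CPM in WT cells (SD, n = 3; limma adjusted p = 0.000233). Leaving out WT replicate 1 kept all 4 calls, with adjusted p of 3.08e-10 for Dip2c, 6.27e-07 for Mgll, 4.28e-05 for Abcd2 and 5.29e-05 for Tor4a. Leaving out any of the other 5 libraries ended each of the 4 calls, with adjusted p up to 0.522 for Dip2c and 0.512 for the other 3, and no sign changed.

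**Figure D2:**
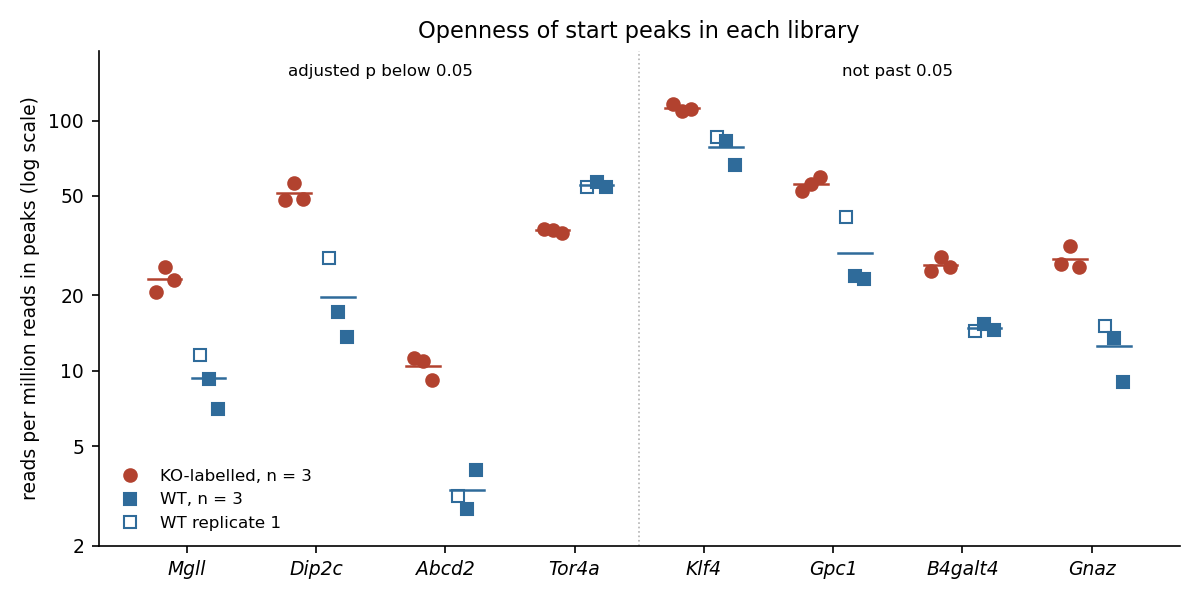
CPM (log axis) of 8 start peaks in each KO-labelled (circles) and WT library (squares, WT replicate 1 open); lines are group means, n = 3 each. The 4 genes on the left passed an adjusted p below 0.05; the KO-labelled libraries lie above all WT libraries in 7 genes and below them in Tor4a.

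The next peaks by p-value, which were chosen after their values were seen and did not pass, were also mostly start peaks that were more open in KO-labelled libraries. The start peak of B4galt4, a galactosyltransferase gene, held 25.0, 28.6 and 26.0 CPM in KO-labelled libraries and 14.4, 15.4 and 14.5 CPM in WT libraries (log2 difference 0.85 ± 0.12, adjusted p = 0.0683). That of Gnaz, which encodes a G protein alpha subunit, held 26.8, 31.4 and 25.9 CPM against 15.1, 13.5 and 9.04 CPM in WT (log2 difference 1.19 ± 0.17, adjusted p = 0.0683). In both genes the groups lay well apart, and WT replicate 1 was the highest WT library at Gnaz and the lowest at B4galt4.

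The Klf4 start peak at chr4:55532395-55533401 held 116, 109 and 111 CPM in KO-labelled libraries, against 86.2, 83.1 and 66.6 CPM in WT libraries. The groups did not overlap. The log2 difference of 0.52 ± 0.09 had an adjusted p of 0.103 with edgeR, 0.00258 with DESeq2 and 5.27e-06 with edgeR without WT replicate 1. Klf4 RNA varied widely, at 13.9, 8.5, 9.73 and 0.532 CPM in the KO-labelled and at 2.33, 3.26 and 0.386 CPM in the WT RNA libraries. KO-labelled replicate 4 lay within the WT range, and the RNA difference did not pass (limma adjusted p = 0.214).

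Gpc1, a gene for a cell-surface heparan sulfate proteoglycan, had 52.1, 56.0 and 59.7 CPM at its start in KO-labelled libraries and 41.2, 23.9 and 23.3 CPM in WT libraries. WT replicate 1 was the highest WT library and stayed below all KO-labelled ones. The log2 difference of 0.95 ± 0.17 had an adjusted p of 0.103 with all libraries and 2.74e-09 without WT replicate 1. Gpc1 RNA averaged 8.97 ± 1.38 CPM in KO-labelled (SD, n = 4) and 2.81 ± 0.116 CPM in WT cells (SD, n = 3; limma adjusted p = 5.33e-05). Other start peaks with an adjusted p of 0.103 included Eid2, an inhibitor of differentiation (log2 difference 1.28), Mmp15, a membrane-bound matrix metalloproteinase (0.66), Slc25a4, the mitochondrial ADP/ATP carrier (0.66), Cdc42bpb, a kinase that acts with Cdc42 (2.31), and Ybx3, a cold-shock domain protein (2.17). RNA of these 5 genes was higher in KO-labelled cells too, with limma adjusted p of 0.000777, 0.00432, 0.0404, 0.00831 and 0.00114, but they were picked with those values seen. At the same adjusted p for openness, RNA did not pass for Nrp2, a neuropilin gene (limma adjusted p = 0.681), Car2, a carbonic anhydrase gene (0.0569), a small second start peak of Ikzf1, a lymphoid transcription factor gene (0.168), or Lrrc58 (0.0903), whose RNA difference of -0.20 had the opposite sign. Of the 64 genes whose tallest start peak was higher at an unadjusted p below 0.001, 35 had RNA that could be tested and 15 of those were called in either direction, against 792 of 8131 over all genes. Rhob, a small GTPase gene, had a log2 difference of 0.49 at its start. Rhob RNA was at 67.1, 73.7, 66.7 and 13.5 CPM in the KO-labelled and at 18.3, 18.2 and 6.24 CPM in the WT RNA libraries. KO-labelled replicate 4 lay within the WT range, and the RNA difference missed the threshold (limma adjusted p = 0.0556).

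Among peaks that were lower, the lowest p-values after Tor4a also missed the threshold. Hsd17b11, a dehydrogenase gene, held 6.55, 6.82 and 6.8 CPM at its start in KO-labelled libraries and 10.5, 11.8 and 10.9 CPM in WT libraries (log2 difference -0.72 ± 0.17, adjusted p = 0.287). Snx33, a sorting nexin gene, held 39.1, 34.5 and 35.1 CPM in KO-labelled and 48.3, 45.6 and 47.9 CPM in WT libraries (log2 difference -0.38 ± 0.088, adjusted p = 0.283). Neither pair of groups overlapped. RNA of both genes was lower in KO-labelled cells, at 2.92 CPM against 7.77 CPM in WT for Hsd17b11 (limma adjusted p = 0.000159) and 8.65 CPM against 16.4 CPM in WT for Snx33 (adjusted p = 0.000206).

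The tilt towards higher values in KO-labelled libraries in the unadjusted p-values lay mainly at transcription starts; the difference between classes of position was not tested. Of 16439 tested start peaks, 1555 (9.46%) were higher and 665 (4.05%) lower at an unadjusted p below 0.05. The shares were 4.28% higher and 4.40% lower in exons outside starts, 3.88% and 3.69% in introns, 3.63% and 3.30% at gene ends, and 4.18% and 3.82% between genes. By non-overlap of the groups start peaks showed no such tilt, with all KO-labelled libraries above all WT libraries in 8.32% and below them in 8.96%. Without WT replicate 1 the calls followed the same classes, with 1646 of 16942 start peaks called higher (9.72%) and 61 lower (0.36%), against 65 higher and 47 lower among 12118 peaks between genes. Start peaks were deeper, with a median standard error of the log2 difference of 0.125, against 0.258 over all tested peaks. In 80.1% of start peaks and 65.1% of all tested peaks the 95% interval of the difference lay within 1 log2 unit of 0.

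The higher start peaks were mostly in promoters rich in G and C. Of the tested peaks, 9095 held at least 150 bases of a RefSeq promoter window (8837 of them start peaks, 53.8% of those tested, so the comparison covers these peaks only). In the 20% of windows with the highest GC content (69.7 to 88.0%) 26.3% of peaks were higher and 2.42% lower at an unadjusted p below 0.05, with a median log2 difference of 0.12. In the 20% with the lowest (26.3 to 54.0%) the shares were 3.46% and 4.45% and the median -0.024. By library, the median log2 level of these GC-richest windows, relative to the mean of all 6, was 0.016, 0.085 and 0.096 in KO-labelled replicates 1 to 3 and 0.09, -0.1 and -0.14 in WT replicates 1 to 3. WT replicates 2 and 3 were low there, and WT replicate 1 lay among the KO-labelled libraries.

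**Figure D3:**
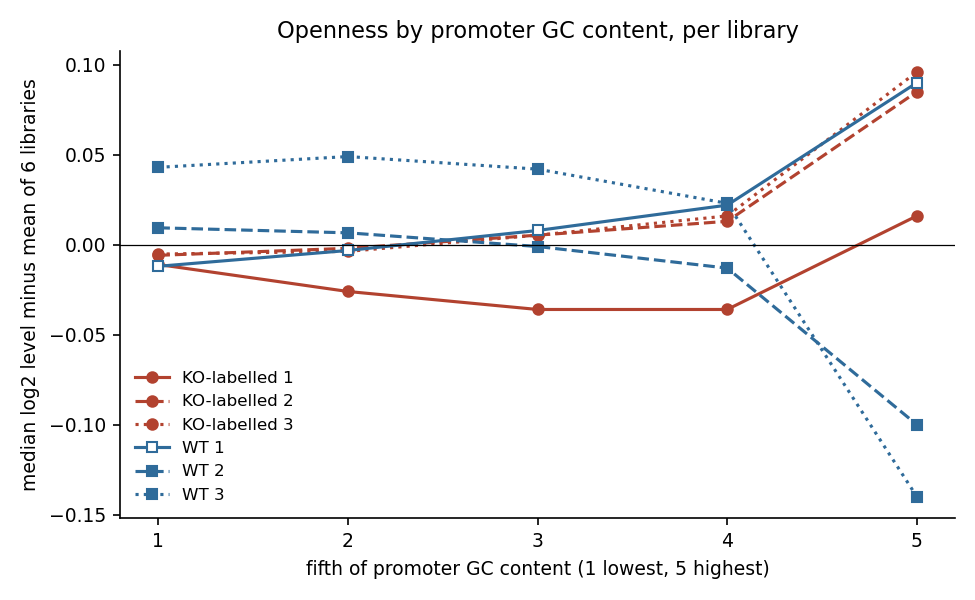
Median log2 level of peaks with a promoter window, relative to the mean of the 6 libraries (vertical axis), by GC content of the window in 5 equal classes (horizontal axis), for each KO-labelled (circles) and WT library (squares, WT replicate 1 open). In the GC-richest class WT replicates 2 and 3 are at -0.1 and -0.14, and the other 4 libraries between 0.016 and 0.096.

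A loess correction for the GC content of the window, added after the data were seen, centred each class of GC content within a library by construction, so the shares of 15.8% higher and 14.9% lower in the GC-richest class after it were no finding. Fitted on these 9095 peaks with all 6 libraries, Mgll and Dip2c were called after the correction (0.022% of peaks, adjusted p = 0.0314 each, log2 difference 1.30 and 1.40) and no peak before it; Abcd2 and Tor4a were not among these peaks. The log2 difference of Klf4 was 0.40 with the correction and 0.52 without it (adjusted p = 0.114 and 0.165). Without WT replicate 1 the calls were 946 higher and 494 lower with the correction and 1240 higher and 155 lower without it (15.8% and 15.3% of peaks), and 1060 peaks were called both ways. With the correction as without it, the number of calls depended on WT replicate 1.

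The ETS motif CCGGAAGT, searched on both strands, was in 8.60% of the 9095 windows and in 3.89% of all 32851 RefSeq mouse windows. Peaks whose window held it had a median log2 difference of -0.04, with 4.86% higher and 4.22% lower at an unadjusted p below 0.05 (n = 782). Peaks without it had a median of -0.0079, with 10.0% higher and 4.33% lower (n = 8313), and the median GC content was 60.7% with the motif and 62.0% without it. None of the 46 windows in peaks that were higher at p below 0.001 held it; their median GC content was 71.3%, and among the GC-richest 20% of windows 5.00% held it. A second ETS motif, CCCGGAAG, which overlaps the first in CCGGAAG, was in 2.17% of these 46 windows, in 7.03% of the 9095 and in 3.19% of all mouse windows. The windows shown above held neither motif. Only these exact motifs were searched for among ETS sites. The shorter GGAA core, counting both strands, is in each printed window, and in that of Tor4a also within the 129 bases in the called peak. Whether any of these windows holds another ETS site was therefore not tested. A match is a run of letters and no measure of binding.

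The peaks were next set beside RNA from other libraries of naive CD4 T cells with the same labels. In those, 566 genes were higher and 470 lower in KO-labelled cells of 12904 tested (8.03% in all, 4.39% higher and 3.64% lower, limma on log2(CPM + 1), adjusted p below 0.05). The count of 1036 calls moved when 1 RNA library was left out. It was 466, 895 and 583 without WT replicates 1, 2 and 3 in turn. Without KO-labelled replicates 1 to 4 in turn it was 541, 536, 727 and 1380, and a fit with a replicate block gave 1590. The RNA groups below were formed with all 7 libraries. For 8131 genes the tallest start peak could be compared with RNA. Start peaks of the 438 genes with higher RNA had a median log2 difference in openness of 0.093, and 68.5% were above 0. Those of the 354 genes with lower RNA had a median of -0.09, with 24.3% above 0. Over all 8131 genes the median was -0.022, with 43.1% above 0. At an unadjusted p below 0.05, 23.3% of start peaks of RNA-higher genes were higher and 1.83% lower, and 5.93% of start peaks of RNA-lower genes were higher and 17.2% lower, against 9.20% and 4.85% over all genes. Across the 8131 genes, which are not independent replicates, the differences in openness and RNA correlated weakly (Pearson r = 0.23, Spearman rho = 0.17).

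The RNA groups separated the libraries one by one. Relative to the mean of the 6 ATAC-seq libraries, the median log2 level at starts of RNA-higher genes was 0.047, 0.056 and 0.075 in KO-labelled replicates 1 to 3 and -0.0084, -0.078 and -0.028 in WT replicates 1 to 3. At starts of RNA-lower genes it was -0.045, -0.045 and -0.024 in KO-labelled libraries and 0.05, 0.032 and 0.071 in WT libraries. The groups did not overlap in either set, WT replicate 1 included. Between KO-labelled replicate 2 and WT replicate 3, which had nearly equal depth, the medians were 0.068 for RNA-higher and -0.12 for RNA-lower genes, against -0.027 over all genes. With the GC correction 70.7% of 307 RNA-higher and 26.4% of 284 RNA-lower genes had a difference above 0, against 45.6% of all 6577 genes with a window, and their windows had a median GC content of 64.3, 61.3 and 62.0%.

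**Figure D4:**
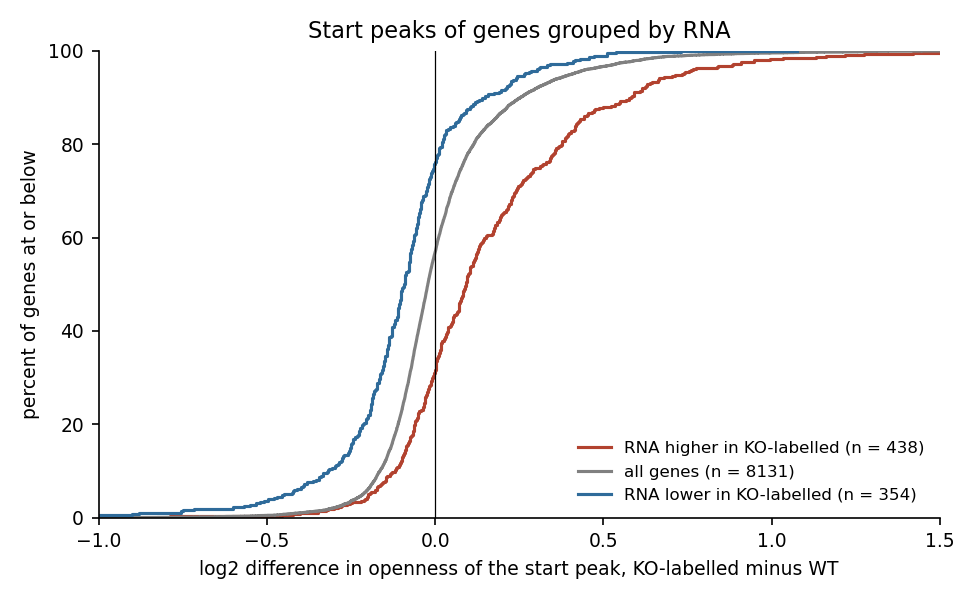
Cumulative percent of genes (vertical axis) by the log2 difference in openness of their tallest start peak, KO-labelled minus WT (horizontal axis, all 6 libraries), for genes whose RNA was higher in KO-labelled cells, all genes compared, and genes whose RNA was lower. The medians are 0.093, -0.022 and -0.09.

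The genes with the largest RNA differences and a tested start peak were picked by their RNA after the values were seen. Of the 10 with the largest increase, 9 had a more open start peak, and in 8 the groups did not overlap; of the 10 with the largest decrease, all had a less open one, and in 5 the groups did not overlap. Over all tested start peaks the groups did not overlap with KO-labelled libraries above in 8.32% and below in 8.96%, and 43.1% of the 8131 genes had a more open start. None of these 20 peaks passed the adjusted threshold. Hspa12a, a gene of the heat shock protein family, held 69.2, 74.2 and 74.1 CPM in KO-labelled and 55.3, 61.3 and 61.3 CPM in WT libraries (log2 difference 0.29 ± 0.076, adjusted p = 0.311), with RNA of 10.1 CPM in KO-labelled and 3.36 CPM in WT cells. Ckb, the brain-type creatine kinase gene, held 34.5, 32.5 and 34.5 CPM in KO-labelled and 29.1, 24.5 and 27.9 CPM in WT libraries (0.32 ± 0.1, adjusted p = 0.354), with RNA of 16.1 CPM in KO-labelled and 4.68 CPM in WT cells. The groups were apart in both genes. Kcna2, a potassium channel gene, was the exception, with 11.6, 8.73 and 13.1 CPM in KO-labelled and 9.83, 12.9 and 11.4 CPM in WT libraries (log2 difference -0.019) beside RNA of 17.2 CPM in KO-labelled and 5.51 CPM in WT cells. On the lower side, Epas1, which encodes a hypoxia-inducible factor, held 76.8, 74.4 and 74.1 CPM in KO-labelled and 90.0, 83.6 and 86.0 CPM in WT libraries (-0.20 ± 0.067, adjusted p = 0.362), with RNA of 6.22 CPM in KO-labelled and 13.9 CPM in WT cells.

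Low RNA levels were common among genes with a more open start. Those 64 genes with a tallest start peak that was higher at p below 0.001 had a median WT RNA level of 1.10 CPM, over the 51 with an RNA value, against 10.4 CPM over all start genes. Start peaks of genes with WT RNA under 0.1 CPM had a median log2 difference of 0.064, with 13.0% higher and 1.88% lower at p below 0.05. Those of genes at 100 CPM or more had a median of -0.043, with 8.25% higher and 8.07% lower. Peak height ran with RNA level. The median start peak in WT libraries was 8.18 CPM in the lowest of these RNA classes and 77.4 CPM in the highest. It was 16.4 CPM in the 64 genes, against 43.1 CPM over all start genes. Whether the differences go with RNA level apart from peak height was not tested.

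At the Elf4 gene itself, on the X chromosome, none of the 10 tested peaks of 23 annotated to it passed. Summed over all 23, the level was 95.5, 83.2 and 94.4 CPM in KO-labelled libraries and 92.3, 93.4 and 99.7 CPM in WT libraries, so the groups overlapped. The main start peak at chrX:48453973-48455088 held 40.6, 36.6 and 35.7 CPM in KO-labelled and 34.2, 32.1 and 39.7 CPM in WT libraries (log2 difference 0.084 ± 0.10, adjusted p = 0.831). The peak at chrX:48432581-48433042, centred 21.5 kb downstream, held 2.11, 2.24 and 1.27 CPM in KO-labelled and 5.09, 3.41 and 3.01 CPM in WT libraries. These groups did not overlap, and the log2 difference of -1.02 ± 0.32 had an unadjusted p of 0.00745 and an adjusted p of 0.349. A peak at chrX:48442120-48442763, centred 11.9 kb downstream, held 2.55, 1.70 and 2.09 CPM in KO-labelled and 1.58, 1.09 and 1.11 CPM in WT libraries (log2 difference 0.79 ± 0.36, adjusted p = 0.497). The other 8 tested peaks, the main start among them, lay between -0.44 and 0.23. Elf4 RNA was at 208, 180, 178 and 190 CPM in KO-labelled and averaged 191 ± 4.87 CPM in WT RNA libraries (SD, n = 3; limma adjusted p = 0.932). The part of Elf4 that is deleted is not given, and peaks or RNA outside it check nothing, so the genotype labels could not be checked here.

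**Figure D5:**
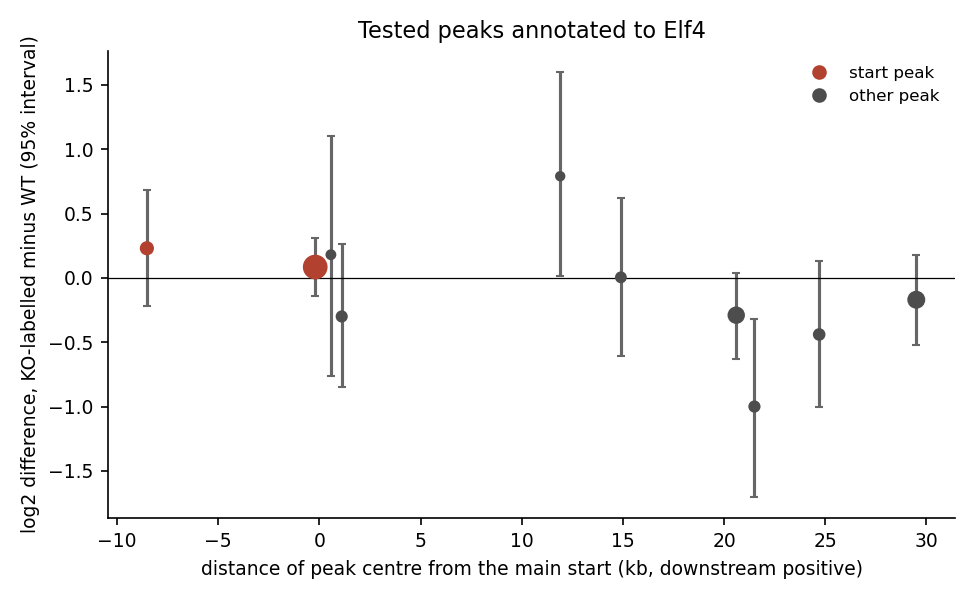
Log2 difference in openness (KO-labelled minus WT, vertical axis) with 95% intervals for the 10 tested peaks annotated to Elf4, by distance of the peak centre from the main start in kb (horizontal axis). Points grow with the mean level in WT libraries; 8 intervals include 0, and those at 11.9 and 21.5 kb do not.

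Lists of T cell genes were followed through the same fit, and no list held a called peak. Beside the tallest start peak of most lists, Klf2, Tcf7, Zap70 and Cd3e are given for their known roles and were picked with their values seen. For the state of naive and quiescent cells, 14 of 323 tested peaks were higher and 15 lower at an unadjusted p below 0.05 (4.33% and 4.64%, against 5.95% and 3.93% over all peaks), with a median log2 difference of -0.023. Without WT replicate 1, 8 of 352 were called higher (annotated to Bach2, Foxp1, Ikzf1, Klf3, Satb1 and Tcf7) and 2 lower (Klf3 and Tcf7), against 3.76% higher and 0.375% lower over all peaks. The tallest start peak in this list was that of Foxo3, a forkhead factor gene of resting T cells, at 249, 265 and 273 CPM in KO-labelled and 270, 259 and 262 CPM in WT libraries. The start of Klf2, which drives exit from lymphoid organs, held 167, 180 and 165 CPM in KO-labelled and 174, 162 and 186 CPM in WT libraries. In both genes the groups overlapped, with log2 differences of -0.0066 and -0.036. Tcf7, a factor of naive and memory T cells, had 48.5, 42.3 and 46.9 CPM at its start in KO-labelled and 55.8, 51.3 and 55.6 CPM in WT libraries (log2 difference -0.24 ± 0.085, adjusted p = 0.394). Its groups did not overlap, and its RNA averaged 902 CPM in KO-labelled and 883 CPM in WT cells (limma adjusted p = 0.899).

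For genes of the T cell receptor and costimulation, 3 of 119 tested peaks were higher and 8 lower at an unadjusted p below 0.05 (2.52% and 6.72%), and the median log2 difference was -0.078, or -0.16 over 17 start peaks. Cd3d, a receptor subunit gene, had the tallest start peak, at 135, 124 and 127 CPM in KO-labelled and 140, 160 and 160 CPM in WT libraries (log2 difference -0.25 ± 0.071, adjusted p = 0.325). The start of Zap70, the kinase that binds the receptor, held 37.2, 35.1 and 35.9 CPM in KO-labelled and 35.4, 47.5 and 46.3 CPM in WT libraries, with WT replicate 1 among the KO-labelled libraries. Without WT replicate 1, where 0.375% of all tested peaks were called lower and 3.76% higher, 3 peaks of this list were called lower and none higher of 129, annotated to Cd3d, Cd3e and Zap70 (Cd3d -0.29, adjusted p = 0.00272; Cd3e -0.25, adjusted p = 0.0401). RNA of Cd3d was at 84.9 CPM in KO-labelled and 86.0 CPM in WT cells (adjusted p = 0.901). For T cell homing, no peak of 65 was higher and 7 were lower at an unadjusted p below 0.05 (10.8%), with a median of -0.098, and none was called without WT replicate 1. The tallest homing start, Cxcr4, averaged 181 ± 11.4 CPM in KO-labelled and 174 ± 6.16 CPM in WT libraries (SD, n = 3 each).

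Regulators of effector lineages and signalling showed no called peak either. Median log2 differences were 0.13 over 32 Th1 peaks, -0.065 over 21 Th2 peaks, -0.075 over 70 Th17 peaks, 0.034 over 74 Treg peaks, and -0.071 over 30 Tfh peaks. The tallest start peaks of the Th2 and Th17 lists, at Stat6 and Stat3, had log2 differences of -0.15 ± 0.071 and -0.033 ± 0.057. For Treg and cytokine receptor genes the tallest was Tgfbr1, a TGF-beta receptor gene, at -0.078 ± 0.064, and for Tfh genes Il6st, the shared gp130 receptor gene, at -0.035 ± 0.081. The counts that follow are at an unadjusted p below 0.05, which 5.95% of all peaks passed as higher and 3.93% as lower. Cytokine receptors had 5 peaks higher and 5 lower of 111, inhibitory receptors and brakes 2 higher and 4 lower of 92 (Socs1, a brake on cytokine signalling, -0.081 ± 0.056 at its start), and the interferon response 1 each way of 41 (Irf1, an interferon regulatory factor, -0.042 ± 0.069). AP-1 and other bZIP genes had 1 each way of 33 (Jund -0.011 ± 0.077), memory and activation genes 2 higher and 6 lower of 81 (Egr1, an immediate early gene, -0.031 ± 0.062), cytotoxic genes none of 7 (Fasl -0.079 ± 0.11), and cell cycle genes 4 each way of 50 (Ccnd2, a cyclin gene, -0.037 ± 0.069). Genes of ETS factors, Elf4 included, had 5 peaks higher and 7 lower of 120, with a median of -0.045 and Gabpa tallest at 0.038 ± 0.065. Housekeeping genes had none higher and 2 lower of 25, with a median of -0.085 (Ywhaz 0.042 ± 0.073). For each of these tallest start peaks except that of Stat6 the unadjusted p was above 0.05, and the adjusted p of every one was above 0.3. In the fit without WT replicate 1, 3.76% of all tested peaks were called higher and 0.375% lower. Without WT replicate 1 the called peaks were 2 higher of 33 for Th1 genes, 2 higher and 1 lower of 74 for Th17, 1 higher of 83 for Treg, 2 lower of 120 for cytokine receptors, and 2 higher and 2 lower of 95 for inhibitory receptors and brakes. They were 2 higher of 34 for AP-1 and bZIP genes, 2 higher of 55 for cell cycle genes, 1 higher of 45 for the interferon response, 1 lower of 84 for memory and activation, and 1 each way of 132 for ETS factors. The Th2, Tfh, cytotoxic and housekeeping lists held none.

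The libraries showed the markers of the labelled cell type. All 9 naive CD4 markers had peaks, which summed to 1460 to 1710 CPM in KO-labelled and 1520 to 1770 CPM in WT libraries. Of B cell markers, Ms4a1, Cd79a and Cd79b had no peak, and Pax5 and Ebf1 summed to 24.4 to 25.1 CPM in KO-labelled and 19.2 to 24.6 CPM in WT libraries. The part of these cells in the results was not tested. Of CD8 and NK markers, Ncr1 and Klrb1c had none, and the other 3 summed to 45.7 to 48.5 CPM in KO-labelled and 44.3 to 55.0 CPM in WT libraries. Of myeloid markers, Lyz2, Csf1r and Mpo had none, and the other 4 summed to 35.5 to 40.5 CPM in KO-labelled and 36.8 to 47.7 CPM in WT libraries. The start of Cebpb, a myeloid factor gene outside these markers, held 28.7, 28.4 and 27.7 CPM in KO-labelled and 27.7, 17.4 and 14.1 CPM in WT libraries. With edgeR it was called higher without WT replicate 1 (adjusted p = 6.88e-05) and not with it (0.37). It was the tallest start of a longer list of myeloid genes. The 12 tested peaks of that list had a median log2 difference of -0.25, or -0.27 without WT replicate 1. Erythroid and stromal markers other than Col3a1 had peaks, at 230 to 238 CPM in KO-labelled and 212 to 256 CPM in WT libraries.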

How the data were processed

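The authors deposited a table of reads per ATAC-seq peak, taken as estimated counts since 0.012% of values were not whole, and rounded here. They deposited RNA values in CPM. Per the submitters' processing notes the build was mm10, and BWA, Bowtie2, MACS2, Partek 10.0.21.0411 and DESeq2 were used, with no roles given. Samples were grouped by the genotype in their labels. Peaks with enough reads (filterByExpr) were tested with edgeR 4.0.16 (quasi-likelihood, TMM, KO-labelled and WT libraries only, no covariate) in R 4.3.3, with Benjamini-Hochberg adjustment over all tested peaks. DESeq2 1.42.0 was an alternative. CPM of peaks use the reads in peaks. RNA was tested with limma 3.58.1 on log2(CPM + 1) for genes at 1 CPM in at least 3 libraries. The GC correction was a loess fit (span 0.3) per library. The ATAC-seq test was checked on simulated counts. Named are the called peaks by size, the tallest start peak of each gene list and all Elf4 peaks, of which a few items are not reported here; peaks named by p-value, by RNA or by known role were chosen after their values were seen. The members and lists were chosen with earlier results of these data known. Precision is limited by the spread between 3 libraries per group as well as by depth, at 6.19 to 13.7 M reads per library.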

Additional observations from a re-analysis of the deposited data

How the results depend on the processing

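The count of called peaks (4, all at starts) depended on the setting, while the 4 called peaks kept their direction in every setting tried. It was 67 with DESeq2 (56 at starts), 1 with limma-voom, 36 with totals only (30 at starts), 52 with no filter on low counts (44 at starts), 6 with depth as a covariate, and 0 with loess offsets, after thinning, with a mean of at least 50 reads, or, added after the data were seen, without peaks of at least 1000 CPM or with the header number series as a term. The 6 peaks called with depth as a covariate were all higher and included 2 of the 4 peaks, so Tor4a was not called there. Each of the 4 peaks passed in 9 to 11 of the 21 settings counted. Leaving out 1 library gave 0 to 2070 (0 to 1707 at starts), and leaving out replicate 1 of both groups gave 2217 (1701 at starts). On peaks with a promoter window the counts were 0 and 2 with all libraries and 1395 and 1440 without WT replicate 1, each without and with GC correction. The cause was not tested. Same-numbered ATAC-seq libraries did not deviate together (r = -0.09, -0.014 and 0.028). With so few libraries this shows no pairing by number but cannot exclude it. With a replicate block 0 peaks were called, and 1590 genes in the RNA, against 1036 without it. RNA counts without 1 library ran from 466 to 1380. The median log2 difference of all peaks (-0.007) was -0.017 with DESeq2, 0.01 with totals only, -0.011 with loess, -0.026 with quantile offsets, 0.0099 with no filter, -0.0018 with at least 50 reads, 0.0039 without peaks of at least 1000 CPM, and -0.007 to 0.0074 without 1 library. With depth as a covariate the Il7r start, at -0.54 with all libraries (adjusted p = 0.54), and the upstream Elf4 start, at 0.23, changed sign. None of the peaks that changed sign was past the threshold. They were: with limma-voom the Elf4 peak at 14.9 kb (-0.0233), with totals only Foxo3 (0.0143), Jund (0.0129), with loess offsets Foxo3 (0.00205), the Elf4 peak at 14.9 kb (-0.0145), with quantile offsets Foxo3 (0.0309), Stat3 (0.0135), Egr1 (0.0308), Jund (0.063), Klf2 (0.00592), the Elf4 peak at 14.9 kb (-0.0365). Signs also changed after thinning Il6st (0.0206), Kcna2 (0.0384), with depth as a covariate Foxo3 (0.0229), Irf1 (0.124), Il7r (0.113), Egr1 (0.0629), Jund (0.133), the main Elf4 start (-0.12), the upstream Elf4 start (-0.25), with no filter Foxo3 (0.011), Jund (0.00756), with at least 50 reads Foxo3 (0.014), Kcna2 (0.00112), Jund (0.0103). They changed with the replicate block the Elf4 peak at 14.9 kb (-0.00351), without replicate 1 of both groups Foxo3 (0.0482), Irf1 (0.0063), Egr1 (0.0297), Ccnd2 (0.0156), Jund (0.113), the main Elf4 start (-0.00641), without peaks of at least 1000 CPM Foxo3 (0.00387). With 1 library left out in turn the sign changed within the range for Foxo3 (-0.0365 to 0.0305), Jund (-0.0581 to 0.0862), the Elf4 peak at 0.566 kb (-0.227 to 0.728), Fasl (-0.15 to 0.0143), Kcna2 (-0.149 to 0.13), Cd69 (-0.165 to 0.0282), the Elf4 peak at 14.9 kb (-0.151 to 0.191), Lef1 (-0.0506 to 0.189), Irf1 (-0.104 to 0.0177), Egr1 (-0.0489 to 0.0273), Ccnd2 (-0.0681 to 0.0274), Ywhaz (-0.000147 to 0.139), Cd8b1 (-0.163 to 0.00262), Klf2 (-0.0717 to 0.0183).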
